A study of Mus musculus with 54 samples.

Results

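Of the 64623 CTCF sites assembled from 16 CTCF ChIP-seq libraries of mouse cells, in which the CTCF supplied was wild-type (WT) or lacked its zinc finger 1 (ΔZF1), 5983 were called as a peak in all 8 WT libraries, and 9 of these were called in none of the 8 ΔZF1 libraries. Described here are 8 sites of this kind, each named for the gene that holds it or lies nearest to it, namely Iqgap1, Numa1, Psme1, Lemd1, Mei1, Fam71f2, AA623943 and Mbp. The 8 were chosen by these calls, in both embryonic stem cells (ESCs) and the neural progenitors made from them (NPCs), so their presence in WT and absence in ΔZF1 is the definition of the group and not a result. As a share of the 5983 sites, the 9 make up 0.150%. Within a cell type, ESC-ΔZF1 lists lacked 26 of the 8362 sites that every ESC-WT list held (0.311%), and NPC-ΔZF1 lists lacked 223 of 8851 (2.52%). The ninth site lies on chromosome 17, 38057 bp from AC166654.1, and was not among the genes described. What the choice did not use is the height of the sites, their sequence, the cohesin libraries, the parental and polyadenylation lines, and the neighbouring CTCF sites.

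The ESCs were of the E14 line and the NPCs came from it by 2 days of differentiation. In both rescue lines the 2 endogenous CTCF alleles were fused to a mini auxin-inducible degron with eGFP, OsTir1(F74G) was inserted at Rosa26, and a doxycycline-inducible Flag-Halo CTCF, WT or ΔZF1, was integrated at the Tigre locus, beside an mCherry reporter of Hb9 at Mnx1. All rescue cells, WT controls included, received 1 µM 5-Ph-IAA to remove the endogenous protein and 1 µg/ml doxycycline to induce the rescue protein for 24 hours. Rescue libraries numbered 4 per genotype and cell type for CTCF and 2 each for Rad21 and Smc3. NPCs of untreated parental E14 and of the Podxl pA and Grb10 pA lines, in which both copies of Podxl or Grb10 carry an inserted eGFP cassette with an SV40 polyadenylation signal, gave 2 CTCF and 2 Smc3 libraries per line, which brings the ChIP libraries with a peak list to 44. Each rescue genotype was 1 line, so differences between the genotypes and differences between these 2 lines cannot be told apart, and replicates are libraries of the same line. Peak lists hold no RNA, so neither the cell type nor the loss of zinc finger 1 could be checked by expression.

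CTCF binds DNA through an array of zinc fingers, most of which read a long GC-rich motif, and it stops the ring-shaped cohesin complex as cohesin extrudes chromatin loops. Zinc finger 1 lies at the edge of that array and has been described as binding RNA. Rad21 and Smc3 are core subunits of cohesin and are usually found at occupied CTCF sites.

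For each peak the lists give a p-value and the fold enrichment at its summit. Fold enrichment is the ratio of ChIP fragments to the local background, with 1 added to each. Together fold and p return the whole number of fragments at the summit. The CTCF rescue libraries held between 5755 and 45941 peaks. Their genome-wide background, a measure of depth, was 1.14 to 2.39 fragments per bp in replicates 1 and 4 and 0.392 to 0.905 in replicates 2 and 3. ESC-ΔZF1 replicate 1 had the most peaks of all 16 and NPC-ΔZF1 replicate 3 the fewest. The peak names inside the lists of replicate 4 carry the number 2, and whether replicate 4 is a separate library was not settled. Fragment counts and the intervals given for shares cover counting error only.

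The positions of the 8 sites, in mm10 with the merged extent of the rescue peaks, fall in coding and noncoding exons, introns and intergenic sequence. Iqgap1 encodes a scaffold protein that ties actin to signalling, and its site, chr7:80740893-80741393, lies in the gene, in exon 1 of the noncoding transcript Iqgap1-203 and in an intron of the coding transcript. The site of Numa1, whose product organises the spindle poles in mitosis, is chr7:101998376-101998994, in coding exon 14. Psme1 encodes a subunit of the PA28 proteasome activator, and its site, chr14:55580011-55580575, lies 2183 bp past the start of the gene, in exon 5 of the noncoding transcript Psme1-205 and in an intron of all 5 coding transcripts. The site of Lemd1, a LEM domain protein, is intronic at chr1:132233549-132233988, as is that of Mei1, which acts in the formation of meiotic double-strand breaks, at chr15:82081142-82081698. The other 3 are intergenic. That of Fam71f2, chr6:29278440-29279287, lies 914 bp upstream of the gene's start. That of the unprocessed pseudogene AA623943, chr11:94818960-94819834, lies 6265 bp upstream, and that of Mbp, which encodes a structural protein of myelin, lies 12795 bp upstream. Only the Fam71f2 site was within 1 kb of its gene's start.

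The sequences around the summits, in which the motif was sought, are given for 7 of the sites over the 50 bases to each side of the summit on the plus strand of GRCm38 (RefSeq), with the best-scoring 20-base word of a CTCF matrix in capitals. The windows are chr7:80741117-80741217 for Iqgap1, chr7:101998647-101998747 for Numa1, chr14:55580256-55580356 for Psme1, chr1:132233747-132233847 for Lemd1 and chr15:82081384-82081484 for Mei1. At Fam71f2 the WT summits fell in 3 places, chr6:29278624-29278724 in 6 of the 8 WT libraries and chr6:29278871-29278971 and chr6:29279132-29279232 in 1 each. At AA623943 the 8 WT libraries gave 9 summits in 2 places, of which chr11:94819573-94819673 held 8 and is shown. E14 cells are of 129 origin and the reference is C57BL/6J, so the cells may differ from these letters.
Iqgap1: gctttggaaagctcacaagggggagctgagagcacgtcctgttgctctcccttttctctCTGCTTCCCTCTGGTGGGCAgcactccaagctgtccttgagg
Numa1: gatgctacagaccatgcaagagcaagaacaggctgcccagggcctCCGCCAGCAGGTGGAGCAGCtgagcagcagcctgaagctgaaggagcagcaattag
Psme1: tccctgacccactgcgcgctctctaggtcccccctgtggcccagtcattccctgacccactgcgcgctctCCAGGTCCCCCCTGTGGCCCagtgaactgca
Lemd1: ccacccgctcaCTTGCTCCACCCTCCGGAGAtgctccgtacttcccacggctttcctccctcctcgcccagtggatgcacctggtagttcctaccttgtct
Mei1: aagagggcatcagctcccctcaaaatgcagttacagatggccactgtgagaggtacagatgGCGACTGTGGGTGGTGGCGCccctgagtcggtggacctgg
Fam71f2, first summit: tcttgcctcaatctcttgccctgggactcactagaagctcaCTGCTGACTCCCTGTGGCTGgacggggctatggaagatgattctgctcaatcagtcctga
Fam71f2, last summit: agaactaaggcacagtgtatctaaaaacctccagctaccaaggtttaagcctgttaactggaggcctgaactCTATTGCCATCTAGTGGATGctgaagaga
AA623943: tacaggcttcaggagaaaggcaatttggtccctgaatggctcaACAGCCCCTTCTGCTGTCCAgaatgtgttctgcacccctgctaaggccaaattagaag

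The matrix was learned from 1883 sites called in all 22 CTCF libraries, none of them one of the 8, and its consensus reads NNNGCGCCCCCTGGTGGCCN on either strand. A word scoring above 95% of windows placed 1000 bp away was found within 50 bp of the median summit at 4 of the 8 sites, against 86.9% of all 5983 sites. The scores were 15.6 at Iqgap1 and 17.7 at Numa1, above 48.0% and 61.4% of the 5983 sites. AA623943 and Psme1 scored 8.16 and 4.84, above 19.5% and 14.3%. At Lemd1, Fam71f2, Mbp and Mei1 the best word scored 3.51, 2.12, 1.73 and −3.09, under the threshold of 3.89. Numa1 was therefore the strongest match and the only site among the 8 above the median of all sites, and the median score of all sites was 15.9. With a stricter threshold, above 99% of the distant windows, the matches were Iqgap1 and Numa1, beside 70.4% of all sites. Within 100 bp of the summit 5 of 8 sites matched, Mei1 (16.5) and Mbp (10.0) among them, beside 85.8%. At Fam71f2 the last summit, occupied in 1 WT library, scored 12.6. These matches describe letters, and no match says only that the letters are not in the window.

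A pair of windows contain a long internal repeat. In the Psme1 window a 23-base word occurs a second time 48 bp further on, and in the Mbp window a 29-base word recurs after 50 bp. A repeated word of 20 or more bases was present at 74 of the 5983 sites (1.24%), and the median site's longest repeated word was 6 bases. GC content of the 8 windows was 52.5% to 67.3%, with Psme1 highest, beside a median of 59.4% over all sites. The windows held between 0 and 5 CpG dinucleotides, and the median site held 4.

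The 8 sites differed in height in WT cells. By the mean percentile of fold enrichment within each WT library, Mbp (81.6 ± 22.5, SD, n = 8), Iqgap1 (80.2 ± 16.7) and Psme1 (78.1 ± 10.8) stood highest, followed by Lemd1 (57.8 ± 17.6), AA623943 (55.1 ± 15.8), Mei1 (55.0 ± 17.4), Numa1 (41.5 ± 27.3) and Fam71f2 (26.0 ± 11.2). Neighbours in this order differed by less than the larger of their SDs, except Psme1 and Lemd1. Among the 5983 sites, 60.6% were lower than Mbp and 0.368% lower than Fam71f2.

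**Figure D1:**
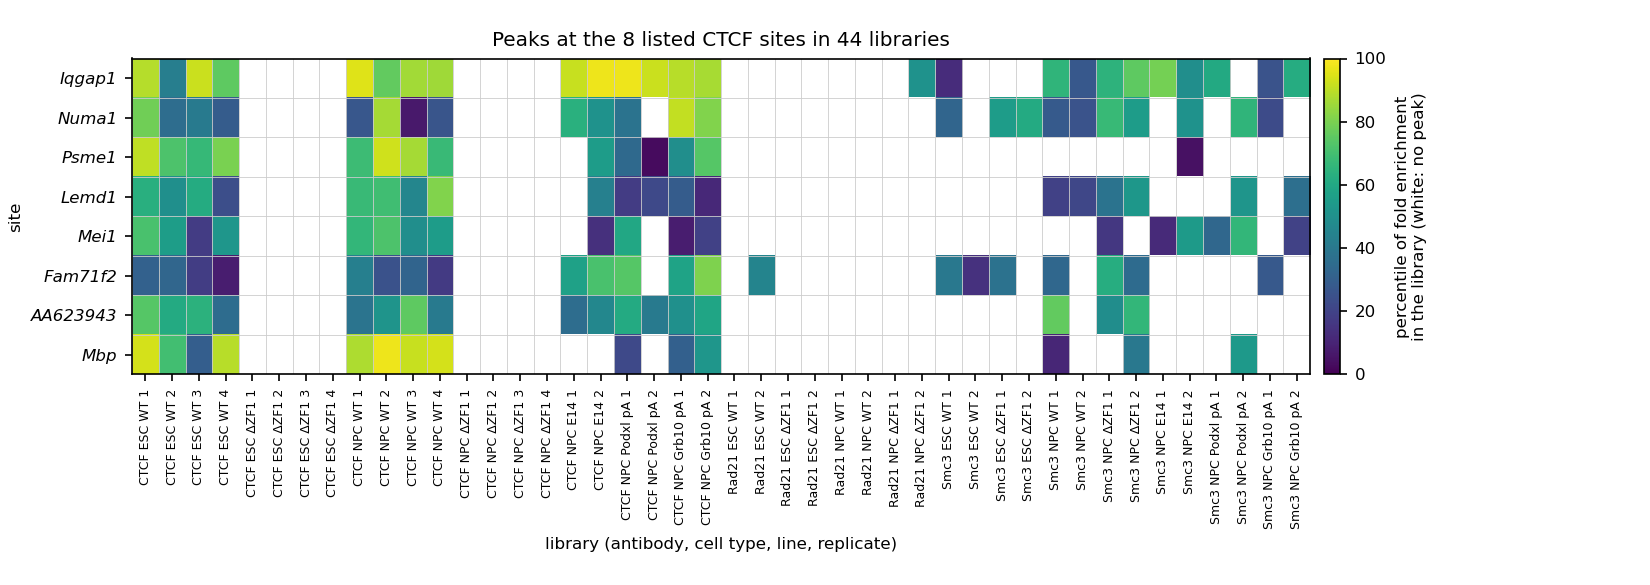
Each row is 1 of the 8 sites and each column 1 of the 44 ChIP libraries, ordered by antibody, cell type and line; colour gives the percentile of the peak's fold enrichment within its library and white means no peak. The ΔZF1 columns of CTCF are white by the rule that chose the sites. The Smc3 columns of NPC-ΔZF1 hold peaks at 7 of the 8, against 93.0% of the 5983 sites called in all WT CTCF libraries.

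At the Iqgap1 site the fold enrichment in ESC-WT replicates 1 to 4 was 23.4, 9.38, 20.0 and 9.02. In NPC-WT it was 19.2, 12.7, 14.3 and 11.2, within the ESC range. The Numa1 site gave 17.9, 8.69, 9.48 and 5.37 in ESC-WT. In NPC-WT it gave 5.81, 15.9, 5.55 and 4.75, with replicate 2 far above the other 3. At both sites the values of the 2 cell types overlapped.

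The Psme1 site gave folds of 25.0, 13.8, 12.2 and 9.88 in ESC-WT and of 8.76, 21.1, 14.5 and 7.58 in NPC-WT. At Lemd1 they were 13.3, 10.2, 11.6 and 5.07 in ESC-WT and 8.67, 11.5, 8.87 and 9.81 in NPC-WT. Mei1 gave 15.5, 11, 7.29 and 6.78 in ESC-WT and 8.51, 12, 9.12 and 6.46 in NPC-WT. In each of these 3, as at every other of the 8 sites but Fam71f2, the highest ESC-WT value came from replicate 1. That library had the most peaks among the WT libraries.

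The Fam71f2 site was the weakest, with folds of 7.99, 8.34, 7.34 and 3.92 in ESC-WT and 6.81, 6.87, 7.83 and 4.21 in NPC-WT. Its lowest value came from 21 fragments at the summit against a background of 4.62. AA623943 gave 16.2, 11.8, 11.9 and 5.72 in ESC-WT and 6.44, 9.20, 12 and 5.57 in NPC-WT. The Mbp site, chr18:82461981-82462619, gave 29.0, 13.3, 8.32 and 13.5 in ESC-WT and 12.5, 37.9, 16.8 and 16.8 in NPC-WT, and replicate 2 of NPC-WT was again the highest of its group. Its summit was also the most sharply placed of the 8, since the 8 WT summits fell within 13 bp.

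Ranked against the rest of each library, none of the 8 sites differed between WT NPCs and WT ESCs. The test was limma on normal scores of the fold's rank, so its differences are in SD of that score and not folds. The largest were 0.95 ± 0.46 (SE) higher in NPCs at Mbp, with an adjusted p of 0.343 by limma, and 0.60 ± 0.34 at Lemd1, with 0.419. Numa1 had the largest difference in the other direction, −0.28 ± 0.46, with 0.802. Of the 5983 sites 15 were called (0.251%), and 172 (2.87%) when same-numbered libraries were treated as pairs. None of the 8 was called in either fit.

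**Figure D2:**
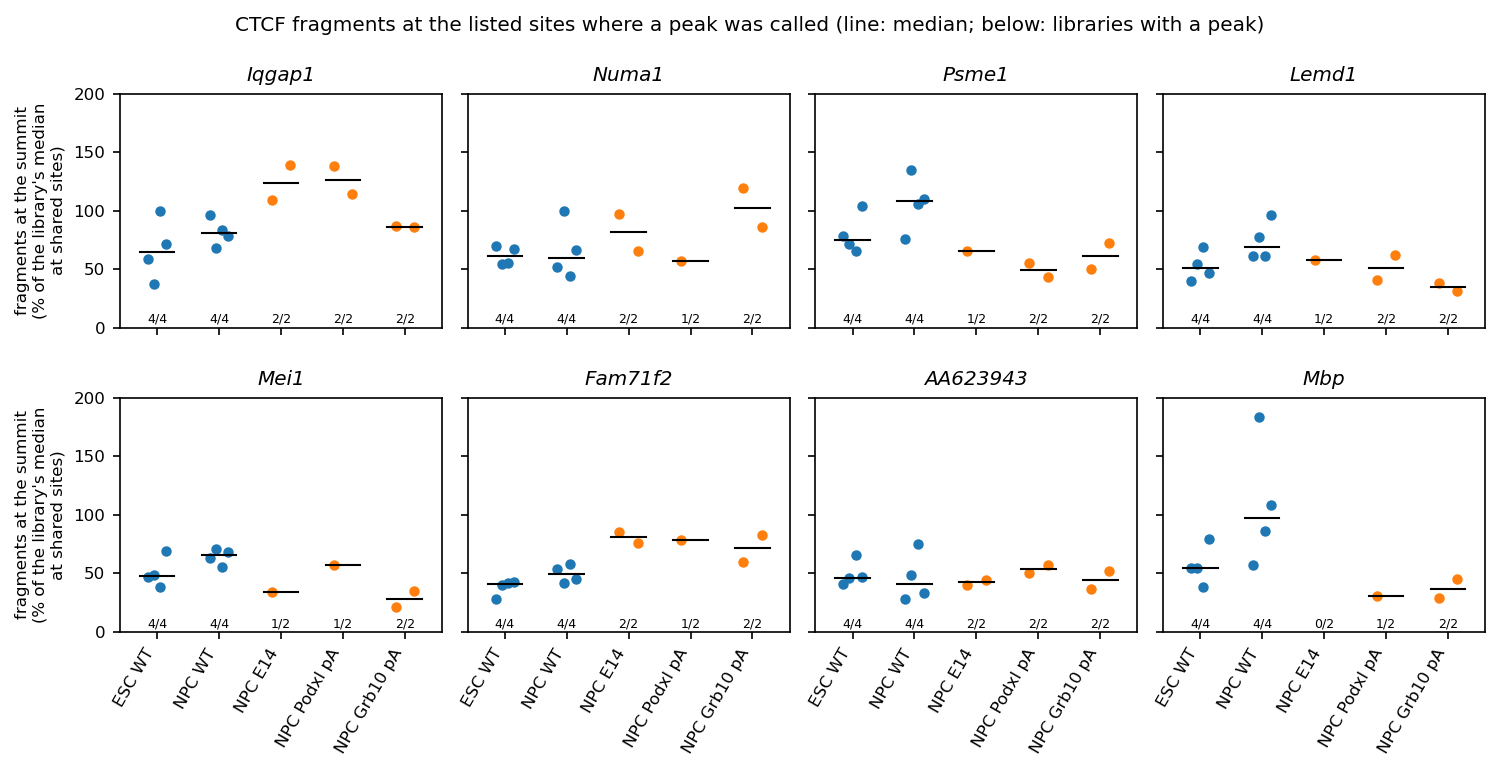
Points are single CTCF libraries in which the site was called, and lines are medians. The y axis gives fragments at the summit as a percentage of that library's median over 941 sites. These sites were called in all 22 CTCF libraries and had a solved fragment count in each. Blue points are WT rescue and orange points are E14 and the polyadenylation lines; Iqgap1 lies between 109 and 139 in E14 and between 67.7 and 96.3 in NPC-WT, and Mbp has no point in E14.

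The calls of the 8 sites are set beside the edge of the rule. Another 16 sites were called in all 8 WT libraries and in exactly 1 ΔZF1 library, and 17 in 7 of the 8 WT libraries and in no ΔZF1 library. Their median percentiles in WT were 58.0 and 49.2, and that of the 9 sites was 57.8. Over all 5983 sites the median percentile was 76.8, and it was 91.3 at the 2122 sites called in all 16 libraries. No site was called in all 8 ΔZF1 libraries and in no WT library.

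A site can be missing from a list because the library is shallow, so the fragments each ΔZF1 library should show at the 8 sites were set beside the number needed for a call. The first is the site's median share of the WT library medians at 1063 shared sites, multiplied by the ΔZF1 library's own median there. The second is the smallest summit count that reaches the weakest p of that library's list over the local background, an approximation that looks at the summit alone. At Iqgap1 the expected fragments in ESC-ΔZF1 replicates 1 to 4 were 75.7, 27.0, 14.2 and 45.0, and 9, 6, 5 and 12 were needed. In NPC-ΔZF1 they were 20.2, 17.2, 10.5 and 49.5, and 8, 6, 6 and 11 were needed.

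Over the 8 sites and 8 ΔZF1 libraries, 63 of the 64 expected values were at or above the number needed. The exception was Fam71f2 in NPC-ΔZF1 replicate 3, where 5.94 fragments were expected and 7 needed. The ratio of expected to needed ran highest at Mbp, from 1.93 to 8.72, at Iqgap1, from 1.75 to 8.41, and at Psme1, from 1.83 to 7.68. It ran lowest at Fam71f2, from 0.848 to 3.57, and at Numa1, from 1.07 to 4.42. These expectations come from WT libraries that the rule required to call each site, so they are biased upward. Taken from the E14 and polyadenylation lines instead of WT rescue, 60 of the 64 were at or above the number needed. That expectation uses only libraries that called the site, 3 of 6 at Mbp and 4 at Mei1, and is biased upward too. Whether depth accounts for the missing calls was not tested. Over all sites, those expected above the number were called in 99.7% of cases in ESC-ΔZF1 replicate 1 and in 50.3% in NPC-ΔZF1 replicate 3. In ESC-ΔZF1 replicate 1 the ratio at the 8 sites was 3.57 or more, by the same upward-biased expectation. The 8 sites lack calls there by the rule, so these values test nothing about them. Of 5725 sites expected above the number in all 8 ΔZF1 libraries, 8 were called in none (0.140%), a count that rests on the calls used to choose the sites. When each CTCF rescue list was instead reduced to its 5755 strongest peaks, the length of the shortest, 20 of the 64 WT calls at the 8 sites remained (6 at Iqgap1, 5 each at Psme1 and Mbp) and none of the 8 was in all 8 WT lists. With sites drawn as short windows around summits, a choice made after seeing the data, 7 of the 8 met the rule, all but Fam71f2.

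**Figure D3:**
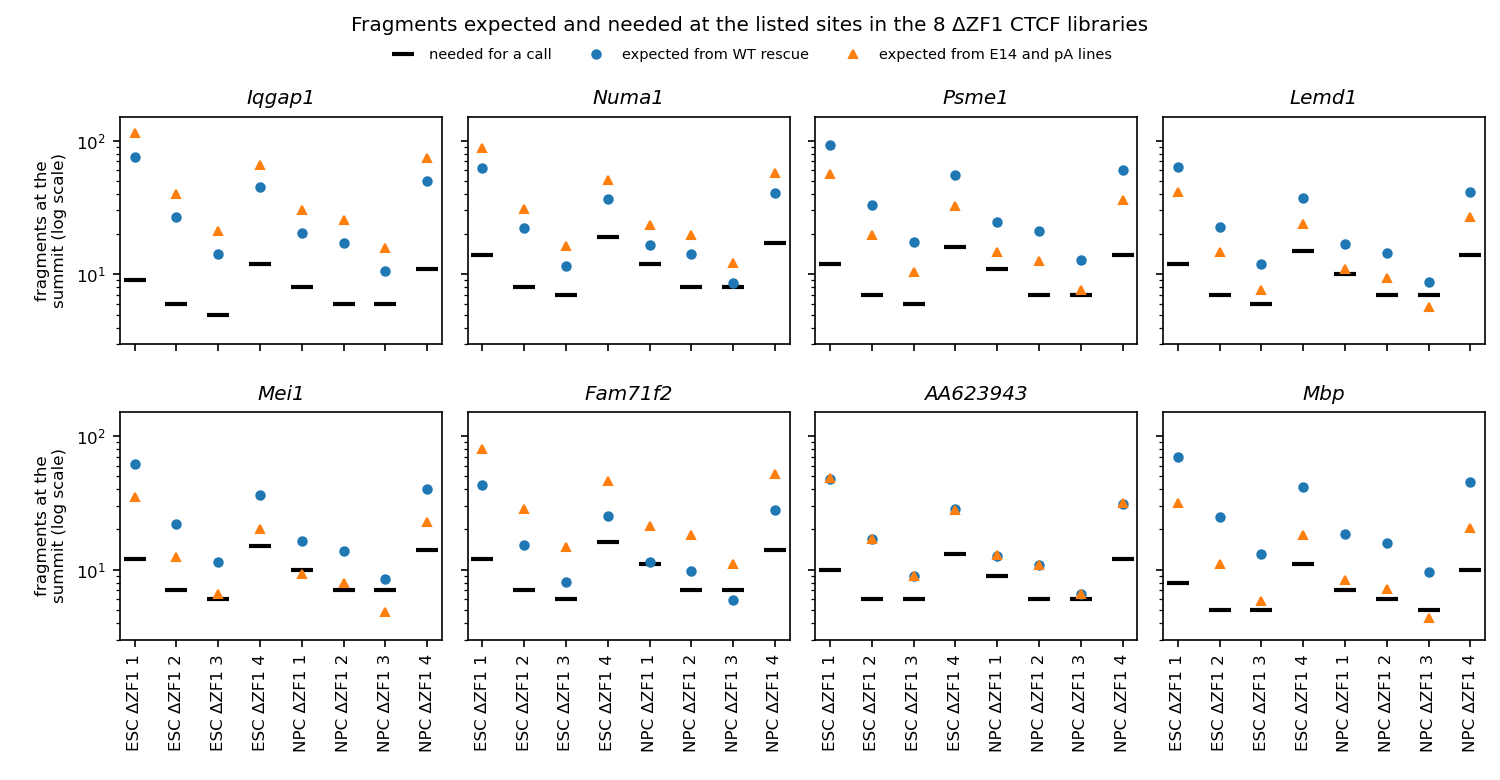
For each site and each of the 8 ΔZF1 CTCF libraries, blue circles give the fragments expected from WT rescue, orange triangles those expected from E14 and the polyadenylation lines, and black bars the number needed for a call, on a log axis. Blue circles lie on or above the bars except for Fam71f2 in NPC-ΔZF1 replicate 3.

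How the sites behaved in cells with endogenous CTCF was read from the 6 CTCF libraries of E14 and the polyadenylation lines, which the choice had not used. Both E14 libraries called 4 of the 8 sites, Iqgap1, Numa1, Fam71f2 and AA623943, against 87.4% of the 5983 sites. E14 replicate 1 called these 4 alone, and replicate 2 also called Psme1, Lemd1 and Mei1, which makes 7 without replicate 1. Podxl pA replicates 1 and 2 called 8 and 4 sites, beside 94.8% and 84.7% of the 5983, and both Grb10 pA libraries called all 8, beside 95.9% and 93.8%. The Mbp site, one of the tallest of the 8 in the WT rescue, was called in neither E14 library. It was called in 3 of the 6 of this set, at folds of 7.81 in Podxl pA replicate 1 and 9.25 and 11.2 in Grb10 pA.

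Scaled to each library's median at shared sites, the summit fragments at Iqgap1 were 109% and 139% in E14 and between 67.7% and 96.3% in NPC-WT, which did not overlap. Podxl pA, at 114% and 138%, lay with E14, and Grb10 pA, at 86.2% and 86.5%, lay within the NPC-WT range. At Fam71f2 they were 76.3% and 85.7% in E14 and 41.9% to 58.3% in NPC-WT, again without overlap, with 59.6% to 82.8% in the 3 libraries of the other lines, and its mean percentile was 68.1 over the 5 libraries of these lines with a peak and 29.4 over NPC-WT. In 6 WT libraries the Fam71f2 summit lay near position 29278674, and in 1 of the 2 E14 libraries, in Podxl pA and in both of Grb10 pA it lay between 29279188 and 29279214. The Fam71f2 values and percentiles above therefore set partly different summits of 1 merged site side by side. At Psme1 the 4 NPC-WT values were 75.9% to 135% and the 5 values of the other lines were 42.9% to 72.4%. At Mbp the NPC-WT values were 57.4% to 184% and the 3 others 28.8% to 44.8%. AA623943 overlapped, at 27.8% to 75% in NPC-WT and 40.0% and 44.7% in E14. Libraries without a peak have no value here, so these ranges leave out the lowest libraries.

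The rank of 2 of the 8 sites could be tested between NPC-WT and E14, because only these were called in all 10 libraries of the fit. By limma the difference, WT rescue minus E14, was −0.61 ± 0.35 at Iqgap1, with an adjusted p of 0.349, and 0.24 ± 0.35 at AA623943, with 0.721. Neither passed, while 175 of 5786 sites did (3.02%). Treatment and genotype differ together between these groups, so their parts cannot be told apart.

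Smc3 calls at the 8 sites are given beside the share of the 5983 sites with an Smc3 peak. The Smc3 lists differed in length. Replicates 1 and 2 held 30516 and 34104 peaks in NPC-ΔZF1 and 27798 and 13710 in NPC-WT. In ESCs they held 18023 and 12181 in ΔZF1 and 17880 and 8169 in WT. The part of list length in the counts was not tested. In NPC-ΔZF1 an Smc3 peak overlapped 7 of the 8, all but Psme1, against 93.0% of the 5983 sites with an Smc3 peak in either NPC-ΔZF1 library. In both replicates it overlapped 5 of the 8, against 87.4%. In NPC-WT the count was 6 of 8, against 86.9%, and 3 of 8 in both replicates, against 65.2%. In ESC-ΔZF1 it was 2 of 8, against 77.8%. These were Numa1 in both replicates, against 60.4% of the 5983 sites, and Fam71f2 in replicate 1. Without replicate 1 the ESC-ΔZF1 count was 1. In ESC-WT it was 3 of 8, Iqgap1, Numa1 and Fam71f2, against 72.9%. With 2 libraries a group no test was run, and these counts are a description.

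Rad21 gave 2 peaks in all at the 8 sites, at Iqgap1 in NPC-ΔZF1 replicate 2, with a fold of 5.95, and at Fam71f2 in ESC-WT replicate 2, with a fold of 6.26. The Rad21 lists were short, with 1306 to 10415 peaks. A Rad21 peak in a WT library overlapped 47.3% of the 5983 sites in ESCs and 41.4% in NPCs. In a ΔZF1 library it overlapped 18.0% in ESCs and 39.3% in NPCs. The 8 sites were thus poor in Rad21 peaks in WT cells too.

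Iqgap1, Numa1 and Lemd1 had an Smc3 peak in each of the 4 NPC rescue libraries. At Numa1 the Smc3 fold enrichment was 6.69 and 5.23 in NPC-WT and 10.4 and 6.81 in NPC-ΔZF1, and the groups did not overlap. Scaled to the library median, its fragments were 43.3% and 69.8% in NPC-WT and 78.1% and 67.3% in NPC-ΔZF1, which did overlap, at a ratio of 1.29. That ratio was above 88.2% of the 3681 sites called in these 4 libraries, whose median was 1.02. Numa1 also had Smc3 folds of 8.27 and 7.52 in ESC-ΔZF1 and 6.50 in the 1 ESC-WT library with a peak.

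At Iqgap1 the Smc3 fold was 11.7 and 5.36 in NPC-WT and 10.0 and 9.74 in NPC-ΔZF1, and the scaled fragments were 39.4% and 41.5% against 39.6% and 50.5%. At Lemd1 the folds were 5.67 and 4.94 against 6.68 and 6.57, and the scaled fragments were 28.8% and 56.6% against 40.6% and 46.7%. Their ratios were 1.11 and 1.02. AA623943 had an Smc3 peak in 1 NPC-WT library, with a fold of 14, and in both NPC-ΔZF1 libraries, with 7.84 and 8.26. The Smc3 summits of the Fam71f2 site lay between 29279188 and 29279206 in 6 of its 7 libraries, away from the main WT CTCF summit, and at 29278676 in NPC-ΔZF1 replicate 2. Psme1 was the poorest of the 8 in cohesin, with 1 Smc3 peak in 14 libraries, in E14 replicate 2, and no Rad21 peak, although its CTCF peak was among the tallest.

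**Figure D4:**
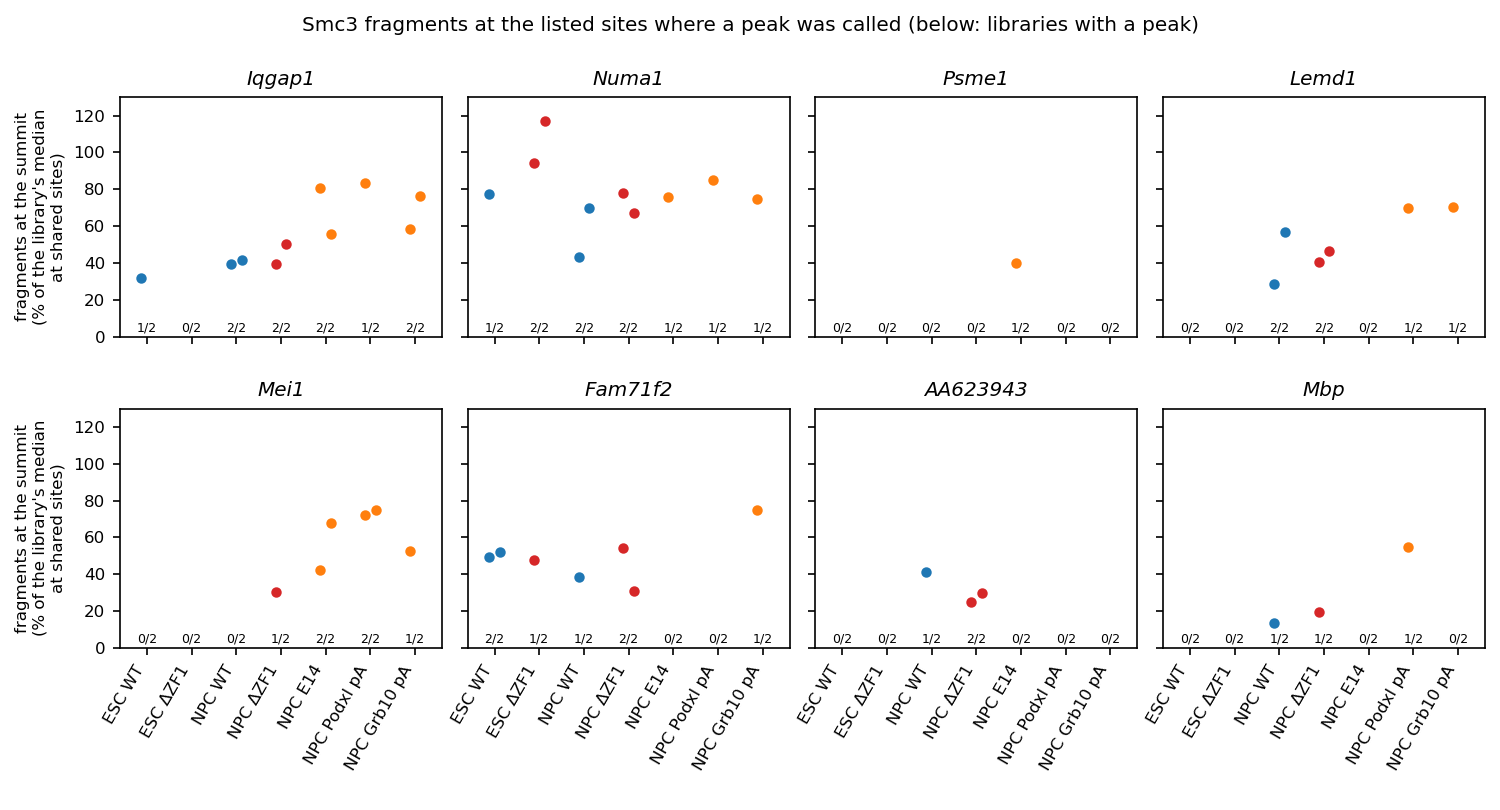
Points are single Smc3 libraries in which a peak overlapped the site. The y axis gives summit fragments as a percentage of the library's median over 2625 sites. These sites were called in all 14 Smc3 libraries and had a solved fragment count in each. WT is blue, ΔZF1 red and the untreated lines orange. In NPCs, Numa1, Iqgap1 and Lemd1 have both ΔZF1 points above the lower WT point. At AA623943 both ΔZF1 points (25.0 and 29.9) lie below the only WT point (41.3). Fam71f2 has ΔZF1 points (54.2 and 30.8) on either side of its WT point (38.5). The ΔZF1 point of Mbp lies above its WT point, and Psme1 has a single point.

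Around the 8 genes, within 100 kb of the gene body, lay 178 other CTCF sites, from 15 at Fam71f2 to 39 at Lemd1. Of these, 5 were called in all 22 CTCF libraries and 45 in 1. Called in all 4 WT libraries were 26 of them in ESCs and 27 in NPCs, and none of these was missing from all 4 ΔZF1 libraries of the cell type, where the shares over all sites were 0.311% and 2.52%. At so few sites, none is near the background. Called in all 8 WT libraries were 20 neighbours, of which 18 were called in at least 5 of the 8 ΔZF1 libraries and 5 in all 8, beside 92.9% and 35.5% of the 5983 sites. No site called in all 8 WT libraries lay in the windows of Iqgap1, Numa1 or Mei1 apart from the lost one.

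**Figure D5:**
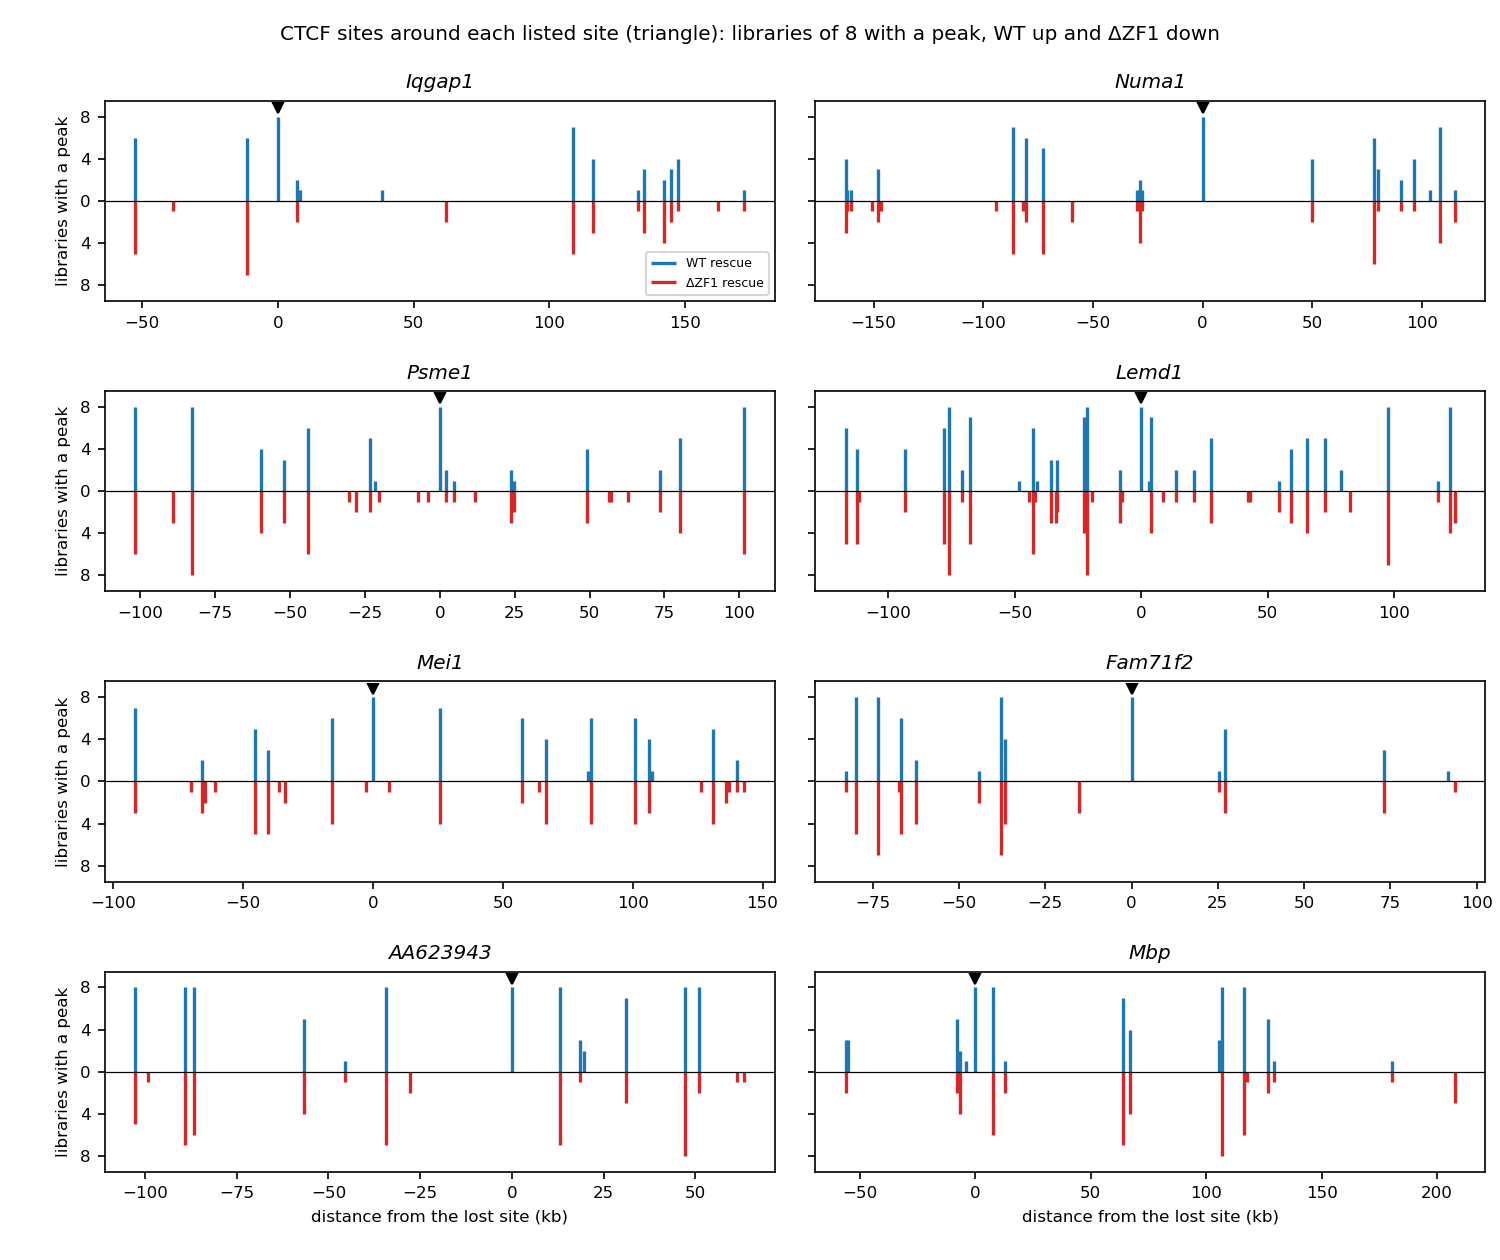
Each panel shows the CTCF sites around 1 of the 8 sites, with the distance from it in kb on the x axis and, on the y axis, the number of the 8 WT libraries (blue, upward) and of the 8 ΔZF1 libraries (red, downward) with a peak. The triangle marks the lost site, which has a blue bar of 8 and no red bar, and tall blue bars beside it have red ones.

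Of neighbours called in at least 3 of 4 ESC-WT libraries, 36 of 50 were called in at least 3 of 4 ESC-ΔZF1 libraries, 72.0% (95% Wilson interval 58.3 to 82.5), beside 64.3% over all sites. In NPCs it was 16 of 51, 31.4% (20.3 to 45.0), beside 36.7%. The background of each cell type lay within the interval near the 8 sites. The shares moved with the libraries used. With 3 of 3 libraries then required, the share was 36.0% without ESC-ΔZF1 replicate 1 and 11.8% without NPC-ΔZF1 replicate 4, and it was 84.2% and 65.9% in replicates 1 and 4 alone and 42.9% and 15.9% in replicates 2 and 3 alone.

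No difference in the number of neighbours called per library passed the test at any of the 8 genes, in a design where passing 16 adjusted tests was close to impossible. At Lemd1 ESC-WT libraries called 26, 16, 14 and 9 of 39, and ESC-ΔZF1 libraries 31, 13, 9 and 13. At Numa1 NPC-WT libraries called 12, 5, 8 and 10 of 23, and NPC-ΔZF1 libraries 5, 0, 2 and 12. That difference, 4.0 fewer in ΔZF1, had the smallest p of the 16 exact two-sided permutation tests, 0.286, and all 16 adjusted values were 1.0. With 4 libraries against 4, the smallest p possible is 0.0286. The libraries were permuted without regard to their replicate numbers, and no paired version was run. In NPCs the count was lower in ΔZF1 at all 8 genes in replicates 1, 2 and 3 and higher at all 8 in replicate 4. Without NPC-ΔZF1 replicate 4 the difference was −6.42 at Numa1, −6.83 at Lemd1 and −5.0 at AA623943, with an exact permutation p of 0.0571 at the last 2, the lowest that 4 against 3 allows, and 0.261 adjusted. Without NPC-ΔZF1 replicate 2 it was −2.42 at Numa1. Within replicates 1 and 4 the Numa1 difference was −2.5 and within replicates 2 and 3 it was −5.5. With each list reduced to its 5755 strongest peaks, the NPC difference was 0.25 at Numa1, −0.5 at Lemd1 and −2.25 at AA623943. The full lists of replicates 1 to 4 held 30555, 21339, 24908 and 15052 peaks in NPC-WT. In NPC-ΔZF1 they held 13639, 10242, 5755 and 33452. The part of list length in these differences was not tested.

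By rank of fold enrichment, ΔZF1 against WT, none of the 15 neighbours tested in ESCs and none of the 5 tested in NPCs passed by limma. Over all sites 2 of 5188 passed in ESCs (0.0386%). In NPCs 0 of 2366 did by limma (0.00%), with 178 at an unadjusted p under 0.05 and 2 passing with quantile-normalized folds. The median difference was −0.14 over the ESC neighbours and −0.01 over all ESC sites. For Smc3, none of the 19 neighbouring Smc3 sites called in all 8 rescue libraries passed, the lowest adjusted p by limma being 0.0541 at a Lemd1 neighbour, with −1.13 ± 0.25, and 31 of 5841 Smc3 sites passed (0.531%). The call depended on the fit, since 2 neighbours passed with the replicate block (lowest adjusted p 0.0193 by limma), 1 with quantile-normalized folds (0.047) and 1 without ESC-ΔZF1 replicate 1 (0.0337).

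Each gene's most alike neighbour was taken by the Jaccard index of its calls with those of the lost site over the 22 CTCF libraries. Of these, 16 are the rescue libraries in which the rule fixed the calls of the lost site. A high index therefore picks neighbours with many WT and few ΔZF1 calls by construction, and their calls are given as a description. The closest by far was at AA623943, chr11:94869801-94870841, 50.9 kb from the lost site, with an index of 0.875. It was called in all 8 WT libraries, in all 6 of E14 and the polyadenylation lines and in 1 ESC-ΔZF1 and 1 NPC-ΔZF1 library, the fewest ΔZF1 libraries among the 20 neighbours called in all WT libraries. Next came Lemd1, chr1:132355747-132356306, at 0.722, with 8 WT and 4 ΔZF1 libraries. The most alike neighbours of the other 6 genes had indices of 0.615 at Mbp to 0.688 at Numa1. The neighbours called most often, in 16 to 22 of the 22 libraries, were called in 4 to 8 of the 8 ΔZF1 libraries, fewest at Mei1, and those of Psme1 (in Carmil3), Lemd1 (in Lemd1 itself), AA623943 and Mbp (in Mbp itself) were called in all 22.

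Sequence was also compared at AA623943, where the index was highest. The best words of the lost site and of its most alike neighbour have the same base at 18 of 20 positions, and both are given on the strand that reads as the consensus. Among the other printed pairs of a lost site and a named neighbour the number was 6 to 14. Another site of the same window, chr11:94839125-94839458, shares a 20-base word with the bases around the lost site's median summit, the longest of any of the 178 neighbours, whose medians per gene were 6 to 8. It was named after its values were seen. It was called in 3 of the 22 CTCF libraries, 2 of ESC-WT and 1 of E14, and in none of NPC-WT, ΔZF1, Podxl pA or Grb10 pA. The most called neighbour of AA623943, kept in all 8 ΔZF1 libraries, has the same base at 10 of 20 positions.
AA623943 lost site: ACAGCCCCTTCTGCTGTCCA
AA623943 most alike neighbour: GCAGCCCCCTCTGCTGTCCA
AA623943 other site: GCTGTCCCCTCTGCTGTTCA
AA623943 most called neighbour: ATGCTGCCACCTGGCGGCCA

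A motif match lay within 50 bp of the median summit at 117 of the 178 neighbours (65.7%). It did at 15 of the 16 called in 20 or more CTCF libraries (93.8%), 5 of which belong to the class of sites, called in all 22, that the matrix was learned from. The exception was the most alike neighbour of Psme1, in an exon of the noncoding Gm49067, 74 bp from its start. The words of the most called neighbours of Iqgap1 (ATTGCTCCCTCTGCTGGTGG, score 16.9), Numa1 (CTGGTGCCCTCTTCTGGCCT, 20.8) and Mei1 (CTTGCTCCCCCTGGTGGTCT, 18.3) are given for comparison with the capitals above, which scored 15.6, 17.7 and −3.09.

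Of the neighbours, 2 differed between NPC-WT and E14. The Lemd1 neighbour chr1:132355747-132356306 ranked lower in the WT rescue, by −1.65 ± 0.26, with an adjusted p of 0.0104 by limma, and an Mbp neighbour in an intron of Mbp, chr18:82578544-82579175, ranked higher, by 1.65 ± 0.35, with 0.0321. They were 2 of 21 neighbours tested. Left-out libraries changed both calls. The first was no longer called without NPC-WT replicate 4 or without either E14 library, at −1.47 to −1.76, and the second without NPC-WT replicate 1 or 4, E14 replicate 1 or either Grb10 pA library, at 1.04 to 1.75.

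Whether genes related to the 8 by family or pathway also lost CTCF sites was asked of 28 genes in 6 lists. Within 100 kb of them lay 73 sites called in all ESC-WT libraries and 76 in all NPC-WT libraries, of which 2 and 3 were called in no ΔZF1 library, beside 0.311% and 2.52% over all sites. At Psme2, the partner subunit of Psme1 in PA28, and at Fam71f1 the lost site was the listed one, since the genes are neighbours of Psme1 and Fam71f2. Apart from these, Fam71e2 had 1 such site in NPCs. The IQGAP scaffolds Iqgap2 and Iqgap3, the LEM domain genes including Lemd2, Lemd3 and Emd, the spindle pole partners of Numa1, such as Gpsm2 and Dctn1, and the meiotic recombination genes, such as Spo11 and Dmc1, had none among 8 to 17 sites per list and cell type.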

How the data were processed

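Peak lists of 44 ChIP libraries, of 54 samples, were used; the 10 inputs had no list and were not used here. Per the study's methods and the submitters' processing notes, the authors aligned reads to mm10 with Bowtie2, filtered them with SAMtools (mapping quality of at least 30), Picard (duplicates) and bedtools (blacklist), and ran MACS2 on each library at q 0.01. Tool versions and the control of each call are not given in the sources used here. As deposited, each peak has a fold enrichment (ratio of summit pileup to local background, formed as described above), −log10 p and −log10 q values, an integer score that MACS2 makes from q, and a summit.

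Whole fragments at each summit were solved from fold and p (tolerance 0.002 in −log10 p, up to 250) and were whole for all peaks sought. Peaks above 250 have no count, so the shared sites used for scaling leave out any site with such a peak. CTCF peaks of the 16 rescue libraries sharing at least 1 bp were merged into sites, and neighbours were sites with a summit within 100 kb of the gene body (GENCODE vM21). Neighbours named were, per gene, the one called in most of the 22 CTCF libraries and the one with the most similar calls, beside any lost in a cell type. The members, gene lists and tests were chosen with earlier results of these data known. One further list of related genes is not reported here. The files hold no read counts, so ranks of fold within a library, as normal scores at sites called in every library compared, were tested with limma 3.58.1 (R 4.3.3, Benjamini-Hochberg, threshold 0.05), all groups of a comparison in 1 fit. Counts of neighbours were compared by exact permutation (scipy 1.17.1, Python 3.11.15). Scripts were tested on simulated data. Sites chosen by presence in every library leave out those that were lost. The p-values measure the spread between libraries of 1 line, which may be technical.

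Same-numbered CTCF libraries deviated together, with correlations of 0.39 to 0.54 between ESC-WT and ESC-ΔZF1, 0.31 to 0.55 in NPCs and 0.22 to 0.39 between WT cell types, each over 4 pairs, so the numbers were taken to pair the samples from the data; the labels do not say what a number marks. Alternatives covered overlap, peak threshold, equal list lengths, left-out replicates, replicates of like depth, window size, motif threshold, scaling and the replicate block.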

Additional observations from a re-analysis of the deposited data

Results flagged for a closer look

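Of 48 groups of 4 libraries examined, 7 had a library far from the other 3, where chance alone flags about 1 in 20. In NPC-WT replicate 2 the CTCF fold enrichment was 15.9 at the Numa1 site, against 4.75, 5.55 and 5.81, and 37.9 at the Mbp site, against 12.5, 16.8 and 16.8. The other 5 were numbers of neighbouring CTCF sites called in an ESC replicate 1. ESC-ΔZF1 replicate 1, with 45941 peaks, called 11 neighbours at Iqgap1 (others 4, 5 and 5), 18 at Psme1 (6, 7 and 7), 18 at Mei1 (4, 5 and 6) and 13 at Fam71f2 (5, 5 and 6). ESC-WT replicate 1, with 43003 peaks, called 10 at Fam71f2 (4, 4 and 5). The part of list length in these counts was not tested.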

How the results depend on the processing

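The 8 sites met the rule at a 50% overlap and at −log10 q of at least 5. Leaving out a library only relaxes the rule and says nothing about them. With equal peak numbers 0 of the 8 did, because the shorter lists dropped WT calls, and sites missing from ΔZF1 numbered 55 in ESCs and 72 in NPCs. In replicates 1 and 4 alone the numbers were 96, 703 and, in both cell types, 15, and in replicates 2 and 3 alone 2462, 6362 and 636. Leaving out 1 library gave 26 to 344 in ESCs (344 without WT replicate 4, 208 without ΔZF1 replicate 1, 43 without WT replicate 3), 223 to 1198 in NPCs (1198 without WT replicate 4, 1067 without ΔZF1 replicate 4, 338 without WT replicate 2) and 9 to 21 in both (19 without ESC-WT replicate 4, 21 without ESC-ΔZF1 replicate 1).

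The share of neighbours kept in ESCs was 84.2% in replicates 1 and 4, 42.9% in replicates 2 and 3, and 36.0% to 89.7% with 1 library left out. In NPCs it was 65.9%, 15.9% and 11.8% to 46.4%, 45.5% with equal peak numbers and 60.5% with 2 of 4 libraries required. Fewer than 4 libraries change what the rule requires. Sites with Smc3 in ESC-ΔZF1 numbered 1 to 2 and sites in both E14 libraries 4 to 7 with a library left out. Motif matches fell from 4 to 2 at the stricter threshold.

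The numbers of sites called by limma moved too. With quantile-normalized folds they numbered 14 for ΔZF1 against WT in ESCs, 2 in NPCs, 149 for WT NPCs against ESCs, 477 for WT rescue against E14 and 49 for Smc3. At −log10 q of at least 5 they were 7 for WT NPCs against ESCs and 14 for Smc3. With a library left out they were 0 to 15, 0 in NPCs, 0 to 79, 18 to 250 and 2 to 67. The cause was not tested. Of the values that answer a comparison 154 stayed and 74 moved. Among limma calls the majority direction turned without 1 library, from 10 higher and 21 lower to 2 higher and 0 lower for Smc3, and from 12 higher and 3 lower to 2 higher and 3 lower for WT NPCs against ESCs without NPC-WT replicate 1. Differences in neighbour counts, none of them called, turned in 26 of 176 values, Mei1 in NPCs from −1.0 to 1.33 without ΔZF1 replicate 3 among them. At single sites 128 values kept their call and 8 did not, all of them in the comparison with E14.

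With the replicate block the calls were 172 for WT NPCs against ESCs, 3 for ΔZF1 against WT in ESCs and 0 in NPCs. For Smc3, with 2 pairs and correlations of 0.12 to 0.21, the samples share only a number, and the block gave 162 calls, 2 of them neighbours. The comparison with E14 was fitted without a block only.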
